A study of Rattus norvegicus with 6 samples.

Results

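Genes of fatty acid oxidation and known target genes of the nuclear receptor PPAR alpha were followed in the renal cortex of rats dosed with phenylbutazone. The list held 37 genes, chosen by function: every array probe whose accession belonged to 1 of these rat RefSeq symbols was taken, which gave 62 probes. Of the 37 genes 36 were tested, among 29938 genes in all, a number that counts each accession or probe without a RefSeq symbol (17783 of them) as a gene of its own. The exception was Ucp3, a mitochondrial uncoupling protein gene of muscle, whose probes were not well above background on any of the 6 arrays. Each of the other 36 was read by the brightest of its probes over the 6 arrays, and all 36 of these were well above background on all 6 arrays.

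The animals were male Sprague-Dawley rats, bought at 5 weeks of age and kept on a basal diet. The vehicle group of 3 rats received corn oil for 4 weeks. The phenylbutazone group of 3 rats received 200 mg/kg/day of this drug, a non-steroidal anti-inflammatory inhibitor of the cyclooxygenases, also for 4 weeks. RNA of each rat's renal cortex was hybridised to a one-colour array of its own. Levels are given as multiples of the 75th percentile of the intensities on the same array, and differences as log2 values, phenylbutazone minus vehicle, with the standard error (SE) of the fit. Because each gene is read by its own probe, levels are comparable between rats and not between genes.

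Fatty acid oxidation is the main energy source of the proximal tubule, the segment that fills most of the cortex. Long-chain fatty acids enter mitochondria as carnitine esters and are shortened there by a repeated cycle of dehydrogenases, hydratases and thiolases. Very long and branched chains are shortened first in peroxisomes, by a separate set of enzymes. Acyl-CoA thioesterases release free fatty acid from coenzyme A. PPAR alpha, bound by fatty acids and by drugs such as fibrates, pairs with a retinoid X receptor on a DNA element and activates genes of all these steps, and rodents are known for a strong peroxisomal response to it.

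Technical facts of the arrays bear on every value below. Slide 1 carried vehicle rats 1 and 2. Slide 2, of a separate scan, carried vehicle rat 3 with all phenylbutazone rats, so that within a slide treatment is compared against a single vehicle array only. Between 65.2% and 68.4% of probes were well above background on an array, and the 75th percentile of intensity was 891 to 1003. All 12 proximal tubule markers were tested, and their summed level was 2061 to 2172 in vehicle and 2133 to 2170 in phenylbutazone, in multiples of the 75th percentile, so the markers of the labelled tissue were present and their sum overlapped between groups. In tissue RNA, fewer cells of a type and less RNA per cell cannot be told apart.

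The comparison asked which genes of this pathway differed after phenylbutazone. Most of the tested genes stood somewhat higher in the treated group, with the highest class median among peroxisomal genes and a small one among mitochondrial genes, a difference between classes that was not tested. The peroxisomal thiolase gene Acaa1b stood at 0.65 ± 0.18 log2 units, the lipase inhibitor gene Angptl4 at 0.66 ± 0.39 and the mitochondrial carnitine palmitoyltransferase gene Cpt2 at 0.51 ± 0.12 (SE, n = 3 per group). The excess was carried by phenylbutazone rats 2 and 3, whereas rat 1 lay near the vehicle rats for most of the list. None of the 36 passed the test (limma with Benjamini-Hochberg adjustment over all genes), the lowest adjusted p being 0.274 for Cpt2 and the highest 0.989 for Fabp1.

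Read against all genes, the picture was as follows. With limma 0 of the 29938 genes, or 0%, had an adjusted p under 0.05. At an unadjusted p under 0.05 stood 6 of the 36 genes (16.7%), against 12.2% of all genes. All 6 were higher, where 5.97% of all genes were higher and 6.24% lower at that level, and with arrays scaled to their median in place of the 75th percentile the split over all genes was 2707 higher and 1318 lower, against 1788 and 1869. The 6 were Cpt1b, Cpt2, Acads, Acaa1a, Acaa1b and Pex11a. Whether groups lay apart could depend on the probe, as given below for Acaa1a, Acaa1b and Cd36. On the brightest probes the values of the 2 groups did not overlap in another 6-gene set, Cpt2, Acadm, Acadl, Acads, Acaa1b and Eci2. That is 16.7% of the list against 21.5% of all genes, but all 6 were higher, where 12.1% of all genes were apart and higher and 9.39% apart and lower. The difference was above 0 in 29 of the 36 genes and below 0 in 7, against 52.8% above 0 over all genes. No gene of the list differed by 1 log2 unit or more, as 1.76% of all genes did. The median difference was 0.15 over the 36 genes and 0.015 over all genes.

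The count at an unadjusted p under 0.05 depended on single arrays. Without phenylbutazone rat 1 it was 12 of 36, 33.3% against 10.2% of all genes. Without vehicle rat 2 it was 6, 5 of them higher, 16.7% against 8.85%. Without phenylbutazone rat 2 it was 2, 5.56% against 7.78%, and without phenylbutazone rat 3 also 2, 5.56% against 7.4%. Without vehicle rat 1 it was 3, 8.33% against 9.68%, and without vehicle rat 3 it was 4, 11.1% against 22%. In these last 4 settings the list was below the share over all genes. With slide as a fixed block it was 6 of 36, 4 of them higher, 16.7% against 31.6% of all genes.

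**Figure D1:**
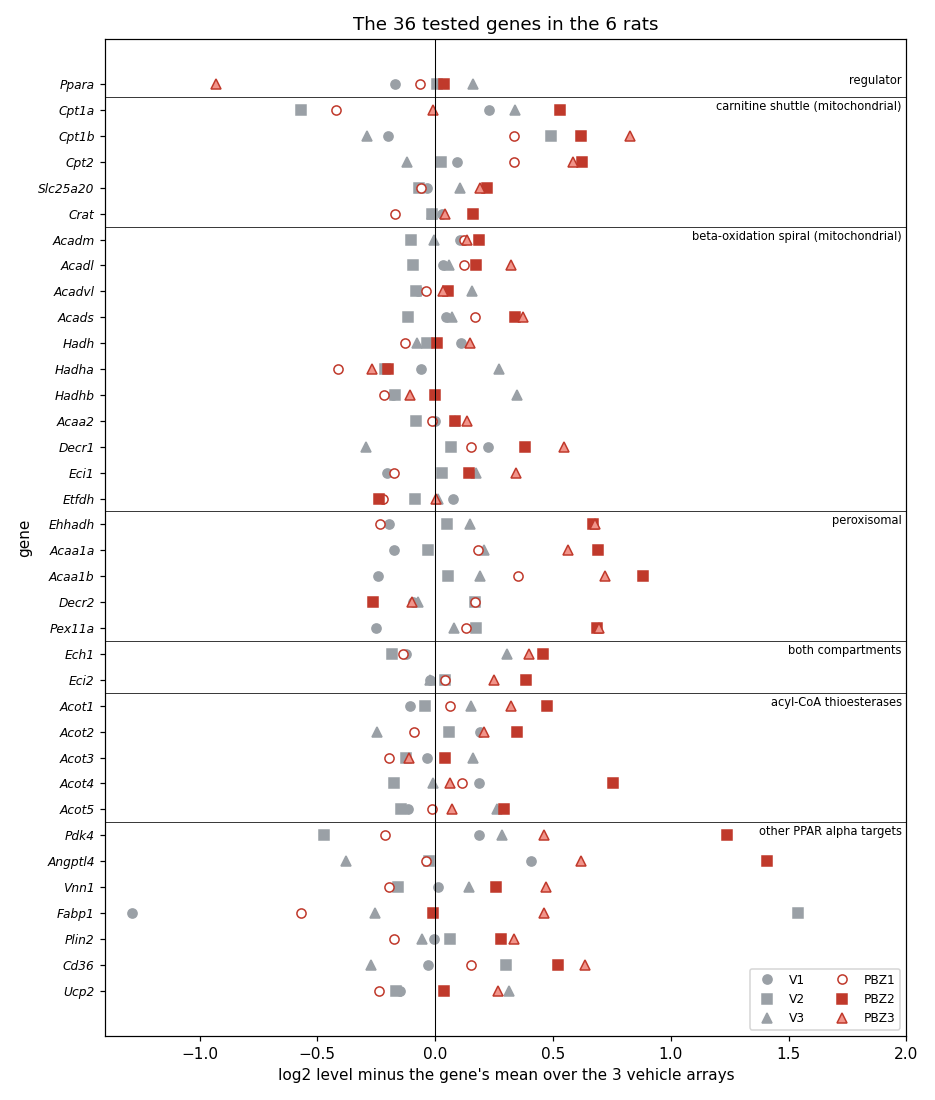
Log2 level of each of the 36 tested genes in each of the 6 rats, as the deviation from that gene's mean over the 3 vehicle rats (x axis), with genes grouped by role (y axis); V, vehicle, PBZ, phenylbutazone. The filled symbols of PBZ2 and PBZ3 lie to the right of 0 for most genes of the shuttle, the peroxisome and the target group. The open circles of PBZ1 were the lowest of the 3 treated rats in 32 of 36 genes (88.9%), against 34.2% of all genes.

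The regulator itself was measured at a level of 1.31, 1.48 and 1.65 in vehicle rats 1, 2 and 3 and of 1.41, 1.51 and 0.774 in phenylbutazone rats 1, 2 and 3. Ppara was thus within the vehicle range in 2 treated rats and lower in the third rat alone. The difference was -0.32 ± 0.27 (limma adjusted p = 0.662), and another probe of the gene gave -0.32 as well. Without phenylbutazone rat 3 the difference was -0.015. In phenylbutazone rat 3, the rat with the lowest Ppara level, 24 of the 36 genes lay above all vehicle rats, 66.7% against 28.9% of all genes. Whether the level of Ppara bears on the other genes was not tested.

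The DNA element bound by PPAR alpha is a pair of AGGTCA repeats with 1 base between them, AGGTCANAGGTCA. RefSeq windows of assembly GRCr8, from 250 bases before to 50 bases after the start of transcription, were found for 31 of the 37 genes and searched on both strands. Only 1 window was kept per listed gene, whereas the windows over all genes were not reduced in this way. The exact element was in 0 of the 31 windows, against 0.0538% of all 33465 windows. With at most 1 mismatch in the 12 fixed letters it was in 3 of 31 (9.68%), against 0.439% of all windows, and with at most 2 in 6 of 31 (19.4%), against 3.77%. A single AGGTCA, which the longer element contains, was in 8 of 31 (25.8%) and in 16.2% of all. The 3 best matches are shown because they are the closest to the textbook element, with the element in capitals and the sequence running 5′ to 3′ on the gene's own strand, ending no later than the base before the start.
Acadvl: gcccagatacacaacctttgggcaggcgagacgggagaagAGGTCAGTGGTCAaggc
Acot4: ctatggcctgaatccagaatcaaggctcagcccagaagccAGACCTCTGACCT
Fabp1: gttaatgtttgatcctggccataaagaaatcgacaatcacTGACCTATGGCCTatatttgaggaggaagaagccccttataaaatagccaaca
The Acadvl stretch is chr10:55236706-55236762 on the minus strand, and its element begins 17 bases before the start. The Acot4 stretch is chr6:109399801-109399853 on the plus strand, with the element reading on the opposite strand from 13 bases before the start. The Fabp1 stretch is chr4:104749223-104749315 on the plus strand, with the element on the opposite strand from 77 bases before the start. In the arrays these 3 genes stood at 0.016 ± 0.11, 0.31 ± 0.22 and -0.039 ± 0.71, the last too uneven to be ranked. Whether a match to the element goes with a difference was not tested. Acaa1b, Acaa1a and Pex11a had no match with at most 2 mismatches in this short window, which says nothing of elements elsewhere.

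The carnitine shuttle carries fatty acids into mitochondria. Its 5 genes all stood above 0, with a median difference of 0.12. Cpt2, whose enzyme re-forms acyl-CoA on the matrix side, was at 13.1, 12.5 and 11.3 in vehicle rats 1 to 3 and at 15.5, 18.9 and 18.4 in phenylbutazone rats 1 to 3. All treated rats lay above all vehicle rats, and the 2 highest were rats 2 and 3. The difference was 0.51 ± 0.12, or 1.43-fold (limma adjusted p = 0.274), and it stayed positive in every refit: 0.63 with slide as a fixed block, and between 0.46 and 0.60 when any 1 rat was left out.

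Cpt1b, the muscle form of the rate-limiting outer-membrane enzyme, was at 2.59, 4.19 and 2.44 in vehicle and at 3.76, 4.57 and 5.28 in phenylbutazone. The groups overlapped through vehicle rat 2, and the difference was 0.59 ± 0.24 (limma adjusted p = 0.409). Its other probes, both dim, gave 0.24 and 0.27. Cpt1a, the liver form, was at 9.42, 5.42 and 10.2 against 6.01, 11.6 and 7.98, so that both groups spread over nearly 1 log2 unit (0.91 in vehicle and 0.95 in phenylbutazone) around a difference of 0.033 ± 0.33. The carnitine-acylcarnitine exchanger gene Slc25a20 stood at 0.12 ± 0.12 and the carnitine acetyltransferase gene Crat at 0.011 ± 0.12. A second Crat probe stood at -0.22.

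Inside mitochondria the first step of each cycle is made by acyl-CoA dehydrogenases of graded chain length. The medium-chain enzyme gene Acadm was at 85.4, 73.9 and 79.1 in vehicle and at 86.4, 90.2 and 87.0 in phenylbutazone. The groups did not overlap, but the lowest treated rat exceeded vehicle rat 1 by about 1%, and the difference was 0.15 ± 0.098 (limma adjusted p = 0.578). The long-chain enzyme gene Acadl was at 71.6, 65.6 and 72.8 against 76.2, 78.8 and 87.4, with rat 3 the highest, a difference of 0.21 ± 0.10 (limma adjusted p = 0.474). The short-chain enzyme gene Acads was at 48.3, 43.1 and 49.1 against 52.5, 59.1 and 60.6, a difference of 0.29 ± 0.11 (limma adjusted p = 0.380). The very-long-chain enzyme gene Acadvl did not show this, at 0.016 ± 0.11, and its second probe stood at -0.18. Thus 3 of the 4 dehydrogenase genes had treated rats above all vehicle rats, as 12.1% of all genes did, and none of the 4 passed the test.

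The genes of the later steps were spread from -0.29 to 0.36. Hadha, which encodes the alpha subunit of the trifunctional protein for long chains, was at 11.0, 9.89 and 13.8 in vehicle and at 8.59, 9.96 and 9.52 in phenylbutazone. It was the lowest of the tested genes after Ppara, at -0.29 ± 0.15 (limma adjusted p = 0.482), and overlapped between groups through vehicle rat 2 and phenylbutazone rat 2. Its partner Hadhb, the beta subunit, stood at -0.11 ± 0.17. Both subunit genes were highest in vehicle rat 3, and with slide as a fixed block, where that rat is the only vehicle rat beside the treated ones, they stood at -0.57 and -0.46 (limma adjusted p = 0.0685 and 0.0774). The other Hadha probes gave -0.18 and 0.0017. The RefSeq windows of these genes lie head to head and overlap, and the best match to the element in that shared stretch had 3 mismatches.

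Hadh, the dehydrogenase of medium and short chains, stood at 0.0092 ± 0.11, the thiolase gene Acaa2 at 0.069 ± 0.099 and the enoyl-CoA isomerase gene Eci1 at 0.10 ± 0.17. Decr1, the mitochondrial dienoyl-CoA reductase needed for unsaturated chains, was higher at 0.36 ± 0.18, with 53.3, 47.8 and 37.2 in vehicle and 50.7, 59.4 and 66.7 in phenylbutazone, so that rat 1 fell among the vehicle rats. Etfdh, which passes electrons from the dehydrogenases to ubiquinone, was lower at -0.15 ± 0.11. Over the 16 mitochondrial genes the median difference was 0.086, with 13 above 0 and 3 below.

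The peroxisomal genes had the largest median, 0.48 over 5 genes, with 4 above 0 and 1 below. Acaa1b, a thiolase that makes the last cut of the peroxisomal cycle, was at 110, 135 and 148 in vehicle rats and at 166, 240 and 214 in phenylbutazone rats 1, 2 and 3. On this probe, the brightest, no value of the groups overlapped, and rat 1 was the closest to vehicle. The difference was 0.65 ± 0.18, or 1.57-fold (limma adjusted p = 0.303), with 0.40 and 0.45 from its other probes. By both of those, Acaa1b in rat 1 lay inside the vehicle range. Its close paralog Acaa1a was at 71.0, 78.5 and 92.5 against 90.9, 130 and 118, overlapping through vehicle rat 3 and phenylbutazone rat 1, at 0.48 ± 0.17 (limma adjusted p = 0.375). Its other probes gave 0.41, where the groups did not overlap, and 0.39, where they did. Transcripts of such near relatives may bind each other's probes, which was not tested.

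Pex11a, whose product divides peroxisomes, was at 27.0, 36.3 and 34.0 in vehicle and at 35.2, 51.9 and 52.1 in phenylbutazone. Rat 1 lay inside the vehicle range while rats 2 and 3 lay well above it, a difference of 0.50 ± 0.20 (limma adjusted p = 0.400), and the other probes gave 0.33 and 0.19. Ehhadh, the bifunctional enzyme of the peroxisomal cycle and a classic PPAR alpha target, had 9.22, 10.9 and 11.7 in vehicle against 8.97, 16.8 and 16.9. Rat 1 was below every vehicle rat and rats 2 and 3 were nearly equal and above every one, so the mean difference of 0.37 ± 0.27 described none of the 3 treated rats. Without rat 1 it was 0.67 (limma adjusted p = 0.336). Decr2, the peroxisomal dienoyl-CoA reductase, went the other way at -0.063 ± 0.15, with its highest treated value, 10.8, in rat 1 and its lowest, 8.03, in rat 2.

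Ech1 and Eci2 encode isomerases for unsaturated chains that occur in mitochondria as well as peroxisomes. Eci2 was at 30.2, 31.5 and 30.1 in vehicle and at 31.5, 39.9 and 36.4 in phenylbutazone, where rat 1 and vehicle rat 2 were equal to 3 digits, at 0.23 ± 0.12 (limma adjusted p = 0.485). Ech1 was at 30.5, 29.3 and 41.1 against 30.2, 45.6 and 43.8, at 0.24 ± 0.21. The high value of vehicle rat 3 brought it to -0.066 with slide as a fixed block.

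Among the thioesterases, which stood at a median of 0.15 over 5 genes, 4 were above 0 and 1 below. The cytosolic form Acot1 was at 34.8, 36.3 and 41.5 in vehicle and at 39.1, 52.0 and 46.7 in phenylbutazone, at 0.29 ± 0.14 (limma adjusted p = 0.470). The mitochondrial form Acot2 stood at 0.15 ± 0.17, with a second probe at -0.13. Acot4, a peroxisomal form, was at 20.7, 16.1 and 18.1 against 19.7, 30.7 and 19. Rat 2 alone was high, and the difference of 0.31 ± 0.22 dropped to 0.089 without it. Its other probes, at 0.28 and 0.25, carried the same single high rat. Acot3 stood at -0.088 ± 0.12 and Acot5 at 0.12 ± 0.15, with further Acot5 probes at 0.30 and -0.027. The 5 are close relatives, and shared binding of their transcripts to 1 probe was not tested.

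The remaining targets serve fuel choice, lipid storage and uptake. Angptl4, which encodes a secreted inhibitor of lipoprotein lipase, was at 29.1, 21.5 and 16.9 in vehicle and at 21.4, 58.2 and 33.7 in phenylbutazone. Rat 2 stood far above the rest, rat 3 above all vehicle rats, and rat 1 within the vehicle range, a difference of 0.66 ± 0.39 (limma adjusted p = 0.533) that was 1.04 with slide as a fixed block and 0.29 without rat 2. A second probe gave 0.30. Pdk4, the kinase that spares glucose by switching off pyruvate dehydrogenase, had the same order at 0.284, 0.778 and 0.454 in treated rats 1, 2 and 3, against 0.375, 0.238 and 0.401 in vehicle, at 0.50 ± 0.40 (limma adjusted p = 0.639). In both genes the treated rats spanned over 1.4 log2 units, 1.44 for Angptl4 and 1.45 for Pdk4.

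Cd36, the fatty acid translocase, was at 3.52, 4.43 and 2.98 against 3.99, 5.17 and 5.6, overlapping through vehicle rat 2. The difference was 0.44 ± 0.20 (limma adjusted p = 0.442). Its other probes gave 0.44 and 0.32, and on both all treated rats lay above all vehicle rats. The pantetheinase gene Vnn1 was highest in rat 3, at 22.5, 30.8 and 35.7 in phenylbutazone against 26.0, 23.1 and 28.5, and stood at 0.18 ± 0.19. The lipid droplet coat gene Plin2 had its lowest value of all 6 rats in phenylbutazone rat 1, at 26.3, with 36 and 37.4 in rats 2 and 3 and 28.5 to 30.9 in vehicle, at 0.15 ± 0.16. The uncoupling protein gene Ucp2 stood at 0.023 ± 0.19. Fabp1, the liver fatty acid binding protein gene, was weak and uneven at 0.0447, 0.318 and 0.0916 in vehicle and 0.0735, 0.109 and 0.150 in phenylbutazone, so that vehicle rats alone spanned 2.83 log2 units and the difference, -0.039 ± 0.71, carries no direction. The median of the 7 tested genes of this group was 0.18.

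**Figure D2:**
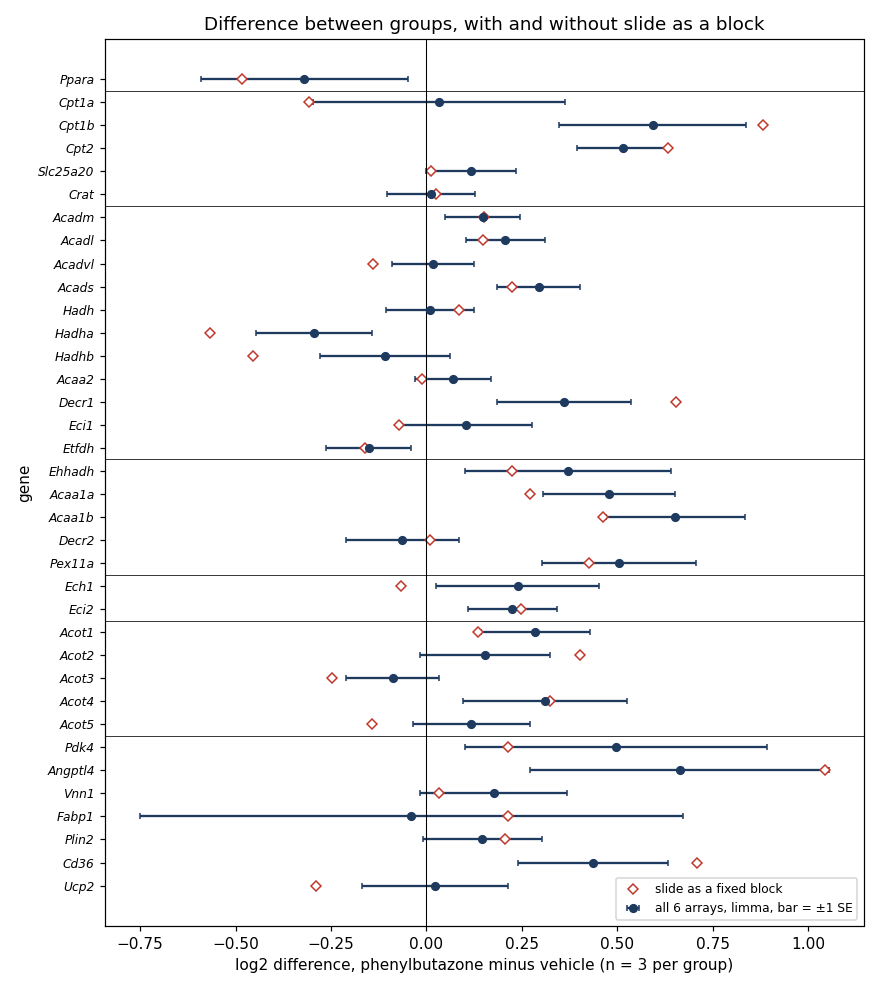
Log2 difference, phenylbutazone minus vehicle (x axis), of the 36 tested genes in role order (y axis): filled circles with bars of ±1 SE from all 6 arrays (n = 3 per group), open diamonds with slide as a fixed block. Cpt2 stands at 0.51 and 0.63, whereas Hadha stands at -0.29 and -0.57 and the 2 Acaa1 thiolase genes move closer to 0 with the block.

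With slide as a fixed block, equal to the contrast with vehicle rat 3 alone, the peroxisomal median was 0.27 in place of 0.48, the mitochondrial median 0.019 in place of 0.086, the thioesterase median 0.14 and that of the remaining targets 0.21. The order of peroxisomal above mitochondrial genes held in that setting, and the median over all genes was 0.055. No p is attached to these medians, since genes are not replicates.

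Set out rat by rat, the treated rats differed among themselves in each class. For each rat the median deviation of a class from the vehicle means was taken. For peroxisomal genes it was -0.20, 0.054 and 0.15 in vehicle rats 1 to 3 and 0.17, 0.69 and 0.68 in phenylbutazone rats 1 to 3. Treated rats 2 and 3 thus stood together, and rat 1 was level with vehicle rat 3. For mitochondrial genes it was 0.031, -0.081 and 0.064 in vehicle and -0.049, 0.17 and 0.14 in phenylbutazone. The order among treated rats was that of the peroxisomal genes on a smaller scale, but rat 1 fell among the vehicle rats. For thioesterases it was -0.036, -0.12 and 0.15 in vehicle and -0.012, 0.35 and 0.070 in phenylbutazone, where rat 3 fell back inside the vehicle range. For the remaining targets it was -0.0034, -0.027 and -0.058 in vehicle and -0.20, 0.28 and 0.46 in phenylbutazone, with rat 1 the lowest of all 6. Over all genes it was between -0.049 and 0.029 in every rat.

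**Figure D3:**
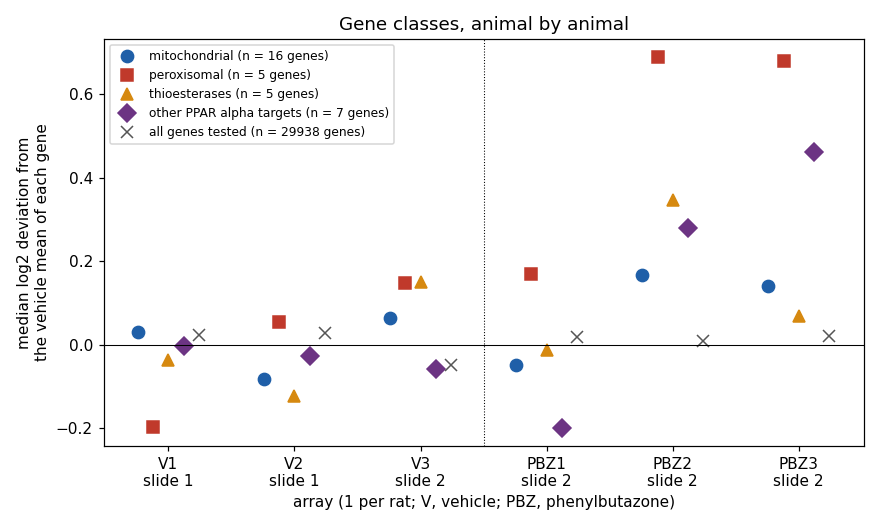
Median log2 deviation from the vehicle mean of each gene (y axis) in each rat (x axis, with the slide of its array), for 4 classes of the list and for all genes tested. The peroxisomal squares stand at 0.69 and 0.68 in PBZ2 and PBZ3 and at 0.17 in PBZ1, near the 0.15 of V3, while the crosses of all genes stay between -0.049 and 0.029.

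Counting genes outside the vehicle range gave the same division. In phenylbutazone rat 1, 7 of the 36 genes lay above all 3 vehicle rats, 19.4% against 25.7% of all genes, and 10 lay below all 3, 27.8% against 21.9%. In rat 2, 25 lay above, 69.4% against 25.6%, and 2 below, 5.56% against 23.2%. In rat 3, 24 lay above, 66.7% against 28.9%, and 3 below, 8.33% against 23.4%. The 2 genes low in rat 2 were Etfdh and Decr2, and the 3 low in rat 3 were Ppara, Hadha and Decr2. Rat 1 was the lowest of the treated rats in 32 of the 36 genes (88.9%), as it was in 34.2% of all genes. The 4 others were Etfdh and Decr2, lowest in rat 2, and Ppara and Acot4, lowest in rat 3. The genes share the RNA of a rat, so these counts describe 3 animals and are not independent observations.

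**Figure D4:**
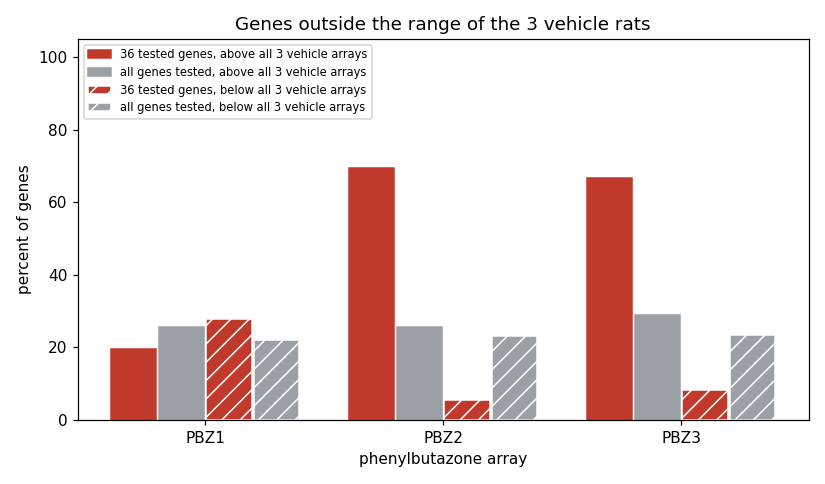
Percent of genes (y axis) above or below all 3 vehicle arrays in each phenylbutazone array (x axis), for the 36 tested genes and for all 29938 genes tested. The bars for genes above the vehicle range reach 69.4% and 66.7% in PBZ2 and PBZ3, against 25.6% and 28.9% of all genes, and 19.4% in PBZ1.

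The spread among treated rats was wide for this list. The median range over the 3 phenylbutazone rats was 0.43 log2 units for the 36 genes and 0.23 for all genes, whereas over the 3 vehicle rats it was 0.35 and 0.40. The treated arrays share slide 2 and the vehicle arrays lie on both slides, so the vehicle ranges also hold any difference between slides. The vehicle rats also differed: rat 3 was the highest of the vehicle rats in 20 of the 36 genes (55.6%, against 35.8% of all genes), among them Ehhadh, Acaa1a, Acaa1b, Ech1 and Hadha, and vehicle rat 2 was the lowest in 16 (44.4% against 23.4%). Rats on 1 array each leave no way to tell an animal from its array.

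**Figure D5:**
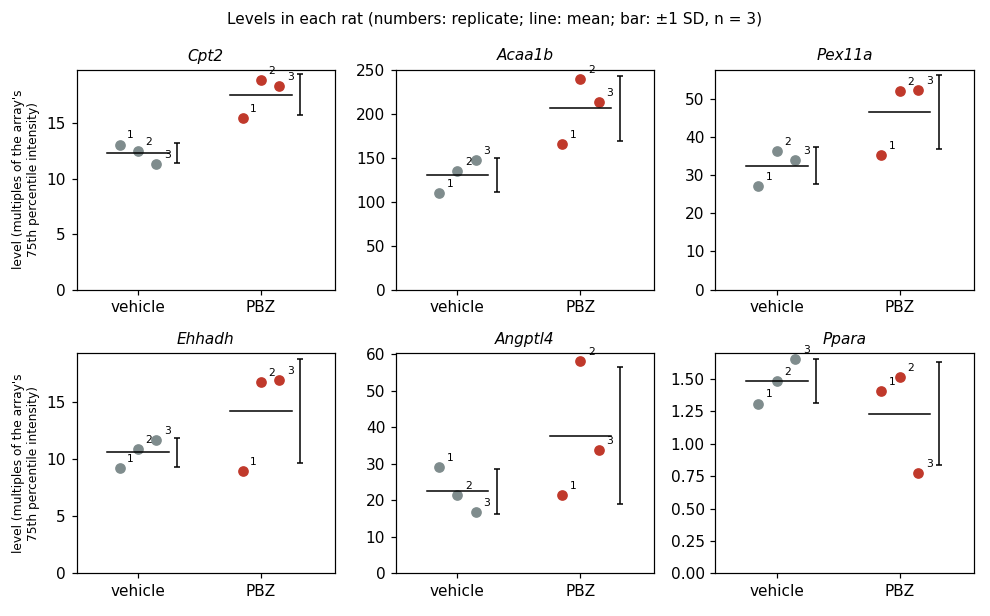
Level of 6 genes in each rat, in multiples of the 75th percentile of its array (y axis, from 0), by group (x axis); numbers give the replicate, lines the mean and bars ±1 SD (n = 3). Cpt2 and Acaa1b have all treated rats above all vehicle rats on the brightest probe, which is plotted. Pex11a and Ehhadh have only rats 2 and 3 above. Angptl4 is led by rat 2 at 58.2, and Ppara is low in rat 3 at 0.774.

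Other genes of fatty acid metabolism were listed in addition, 108 in all, of which 94 were tested. Among these 67 stood above 0 and 27 below, with a median of 0.082, and 0 passed over all genes (limma). At an unadjusted p under 0.05 there were 8 higher and 3 lower of the 94, 8.51% and 3.19%, against 5.97% and 6.24% of all genes. The groups did not overlap in 15 that were higher and 7 that were lower, 16% and 7.45%, against 12.1% and 9.39% of all genes, and these included the 11. The classes were close to each other: 0.11 for further peroxisomal genes (14 of 22 above 0), 0.042 for further mitochondrial genes (8 of 13), 0.083 for ketone body genes (4 of 5), 0.17 for uptake, activation and malonyl-CoA genes (11 of 15), 0.11 for omega-hydroxylation (4 of 6), 0.071 for lipid droplets and lipolysis (8 of 9), 0.10 for nuclear receptors and coregulators (12 of 13) and 0.068 for further targets (6 of 11). The wider peroxisomal set, in which the cytosolic thioesterase gene Acot12 was also counted, therefore did not stand as high as the 5 peroxisomal genes of the list.

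Enzymes that activate fatty acids to acyl-CoA, the step before oxidation, supplied 4 of the 8 higher genes. Acsl5 was at 1.68, 2.01 and 1.81 in vehicle and at 2.31, 2.41 and 2.36 in phenylbutazone (0.37 ± 0.10), here with rat 1 level with the other treated rats. Acsl4 stood at 0.35 ± 0.10, Acsl1 at 0.44 ± 0.16 and the very-long-chain synthetase and transporter gene Slc27a2 at 0.33 ± 0.10, with limma adjusted p values of 0.303 to 0.379 for the 4. The triglyceride lipase gene Pnpla2 stood at 0.49 ± 0.16, the peroxisomal membrane import gene Pex19 at 0.36 ± 0.14 and the retinoid X receptor gene Rxrg at 0.36 ± 0.11.

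Creb3l3, which encodes a membrane-bound transcription factor of lipid metabolism that acts beside PPAR alpha in liver, had the largest positive difference of the tested companion genes. It was at 8.15, 6.43 and 4.36 in vehicle and at 8.5, 16.9 and 16.5 in phenylbutazone, a difference of 1.12 ± 0.35, or 2.18-fold (limma adjusted p = 0.327). Rat 1 was just above the highest vehicle rat and rats 2 and 3 were about equal, the order seen for Pex11a and Ehhadh.

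On the lower side stood Acot12, which encodes a cytosolic acetyl-CoA thioesterase, and the pyruvate dehydrogenase kinase gene Pdk3. Acot12 was at 1.21, 1.52 and 1.78 in vehicle and at 0.885, 0.920 and 1.03 in phenylbutazone (-0.65 ± 0.17, limma adjusted p = 0.285). All 3 treated rats were alike, without the separation of rat 1. Pdk3 stood at -0.35 ± 0.0996. The omega-hydroxylase genes Cyp4a1 and Cyp4a2, standard markers of PPAR alpha activation, stood at 0.30 ± 0.17 and 0.011 ± 0.090, and their relative Cyp4a3 at -0.73. The Cyp4a genes are named beyond the rule, after their values were seen.

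Markers of other cell types were set beside these differences, and several divided the treated rats as the list did. Sums of levels are given for phenylbutazone rats 1, 2 and 3 in that order. The macrophage list summed to 2.88, 3.61 and 3.77, against 3.31 to 3.65 in vehicle, with 1 of its 4 tested genes above 0. The adipocyte list, of which 8 of 9 genes were on the array, summed to 1.35, 1.74 and 1.92, against 1.35 to 2.07 in vehicle, with 2 of 7 tested genes above 0. Rat 1 was thus the lowest treated rat in both lists, as in most genes of fatty acid oxidation. The adipocyte list shares Cidec, Lipe and Ucp1 with the companion genes of fatty acid metabolism, so it is not independent of them. Of these, the lipid droplet gene Cidec stood at 0.0944, 0.354 and 0.505, against 0.308, 0.374 and 0.185 in vehicle rats 1 to 3. The collecting duct list divided the rats in the opposite direction, at 201, 137 and 138 against 155 to 171 in vehicle, with 5 of 6 genes above 0. So did the list of renal medulla and papilla, at 2.43, 1.97 and 1.97, against 1.84 to 2.44 in vehicle, with 3 of 5 genes above 0. Proximal tubule markers had median deviations from the vehicle means of -0.044, 0.075 and 0.024, so that rat 1 was again the lowest treated rat, on a small scale. Rat 1 was also lowest in the podocyte list, at 31, 34.1 and 33.6, against 27.9 to 33.1 in vehicle. The same held for the T and B lymphocyte list, at 0.514, 0.578 and 0.737, against 0.450 to 0.559. In the endothelium, smooth muscle and adrenal cortex lists rat 2 had the lowest sum of the treated rats. The thick limb and distal tubule list summed to 344, 320 and 421 and, in vehicle rats 1, 2 and 3, to 313, 331 and 202, which sets vehicle rat 3 apart. The erythrocyte list, 7 of 8 genes on the array, was above 0 in 7 of 7 tested genes and summed to 823, 579 and 922 against 494 to 677 in vehicle, a different order. Slc4a1 is in both the erythrocyte and the collecting duct list, so these lists are not independent of each other. The striated muscle list, with Myh1 and Myh2 not well above background on any array, summed to 0.534, 0.432 and 0.432 against 0.512 to 0.615 in vehicle, with 1 of 4 tested genes above 0. The part of these cell types in the differences above was not tested.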

How the data were processed

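The 6 files, 1 array per rat, hold intensities from Agilent Feature Extraction 10.7, per the submitters' processing notes; per the file headers the processed intensity is background-subtracted and detrended and not normalized between arrays, and the layout names build rn4. The deposited value table holds a ratio, each array's processed intensity over its 75th percentile. Flags of 0 or 1, deposited as other columns, marked probes well above background.

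Control spots and 40 outlier probes were left out, log2 intensities were set relative to each array's 75th percentile, and probes well above background on at least 3 arrays were kept. Accessions named 28206 of 61537 probes (45.8%) through RefSeq, assembly GRCr8. The brightest probe stood for a gene. Differences were fitted with limma 3.58.1 (lmFit, eBayes) in R 4.3.3, two-sided, with Benjamini-Hochberg adjustment over all 29938 genes and a threshold of 0.05. The fit was tested on simulated data.

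Per the series design the rats are biological replicates. Array-by-array values were to be given for Ppara, for genes whose groups lay apart and for the 2 largest differences in each direction, and companion genes were named where groups lay apart at an unadjusted p under 0.05; array values of other genes were added after being seen. The genes, lists and tests were chosen with earlier results of these data known. Normexp used the median spot intensity, as the files hold no mean. Probe sequences were not used here. Some companion genes that met the naming rule or were measured are counted but not reported here by name.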

Additional observations from a re-analysis of the deposited data

How the results depend on the processing

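The 36 genes were refitted under 19 alternatives, and 0 of them passed the threshold in any, while 24 kept the sign of their difference in all. The count of genes at an unadjusted p under 0.05, 6 in the report, was 2 with quantile normalization (5.56% against 11.5% of all genes) and 3 with no filter on dim probes (8.11% against 8.15%), and 2 to 12 when 1 rat was left out. The 2 and the 3 were all higher, where 1718 of 29938 and 1710 of 45410 genes were higher at that level. Over all genes the count past the threshold, 0 in the report, was 1 with quantile normalization, 2 with normexp background correction, 8 with an intensity trend, 1 with slide as a random block, and 0 to 814 when 1 rat was left out. The 814 came without vehicle replicate 3, where slide and treatment coincide and cannot be told apart, and 2 came without phenylbutazone replicate 2. The cause of these shifts was not tested. The medians of these 4 classes stayed above 0 in every alternative: 0.27 to 0.67 for peroxisomal genes, 0.0091 to 0.18 for mitochondrial genes, 0.057 to 0.28 for thioesterases and 0.054 to 0.36 for the remaining targets. Within the mitochondrial class, the median of the 11 genes of the oxidation cycle, 0.069 in the report's setting, turned to -0.0036 with quantile normalization and to -0.013 with slide as a fixed block or on slide 2 alone. With the replicate block 4 genes of the list had an unadjusted p under 0.05 and 0 passed. Between rats of the same replicate number the correlations of their deviations were -0.030, 0.011 and -0.074. The highest of all pairs, 0.10, joined vehicle 3 to phenylbutazone 1. With 3 arrays per group these values cannot settle whether the rats were paired. The number of arrays and the dim signal of Fabp1 and Pdk4 limit precision.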
